A study of Mus musculus with 6 samples.

Results

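Genes of neutrophil granules and of neutrophil maturation were followed in marrow cells with an active stem cell factor gene and in unselected bone marrow. The set had 36 genes chosen by symbol. For 34 of them a row of the deposited array table carried that symbol alone, out of 19938 genes measured in this way, and each of the 34 had 1 such row. Fpr1 and Fpr2, receptors for bacterial formyl peptides, were not analysed here. By role, the measured genes comprised 5 of the primary granules and their stage, 9 of the secondary granules, 8 of late maturation, 4 of the phagocyte oxidase, 1 chemoattractant receptor and 7 that other myeloid cells also use.

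The study hybridised RNA from 6 sorted samples of 5000 cells each to Affymetrix Mouse Gene ST 1.0 arrays. One group of 3 arrays carried Scf-GFP+ cells from mice heterozygous for a green fluorescent protein knocked into the stem cell factor gene, and the other 3 carried unselected whole marrow of wild-type mice. All mice were young adults on a C57BL/6 background. The Scf-GFP+ cells were double-sorted, which the labels do not state of the whole marrow cells. The kind of cell and the genotype differed between the groups, and the handling may have differed too. The reporter marks cells by the activity of that gene and not by a surface protein of one lineage. Replicates were independent aliquots per the labels. Whether each stood for its own animal is not recorded there, and the p-values thus rest on a spread that may be technical in part.

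Neutrophils build their granules in sequence. Promyelocytes fill the primary granules with myeloperoxidase and serine proteases, myelocytes and metamyelocytes fill the secondary granules with lactoferrin, lipocalin and cathelicidin, and band and segmented cells make tertiary granule proteins, calgranulins and surface receptors. Transcripts of the primary granules are shut off as the later ones come on, so the set reads out stage as well as lineage. Neutrophils and their precursors are abundant in mouse bone marrow.

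Stromal genes served as a check of the labels and not as a result, because the sort itself selects for Kitl. All 12 of 12 stromal and niche genes, among them Kitl, Cxcl12 and Lepr, were called higher in Scf-GFP+ cells, against 9.01% of all genes. Their mean log2 level was 10.96 to 11.09 in Scf-GFP+ cells and 5.67 to 5.79 in whole marrow. Across genes, arrays of one group correlated at 0.973 or more (Pearson) and arrays of different groups at 0.834 or less. Genes are not independent replicates, so these values only describe the arrays. Xist, a transcript of the inactive X chromosome, was high on the first and second Scf-GFP+ arrays (11.50 and 11.81) and lay between 4.99 and 5.10 on the other 4 arrays. The Y-linked Eif2s3y measured 4.41 and 3.72 in those replicates and 7.33 to 8.23 on the other 4. By these genes, Scf-GFP+ replicates 1 and 2 read as female and the other arrays as male. Sex thus also differed between the groups and among the Scf-GFP+ arrays. Scf-GFP+ replicate 1 stood apart from replicates 2 and 3 in many of the neutrophil genes, and results that rest on it are given with and without it.

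Promoters are shown for 4 members that carry the main pattern of the results: the primary granule gene Elane, the secondary granule genes Ltf and Ngp, and the late gene S100a8. They come from RefSeq on GRCm38.p6, each 300 bases on the plus strand, from 250 before the gene's start to 50 after it. Elane, neutrophil elastase, lies at chr10:79886062-79886361, Ltf, lactoferrin, at chr9:111019042-111019341, Ngp, neutrophilic granule protein, at chr9:110419558-110419857 and S100a8, a calgranulin subunit, at chr3:90668821-90669120. Capitals mark matches, on either strand, to TTGCNNAA, a core bound by C/EBP factors, and GAGGAA, a core bound by PU.1. Both factors are known regulators of granulocyte genes.
Elane: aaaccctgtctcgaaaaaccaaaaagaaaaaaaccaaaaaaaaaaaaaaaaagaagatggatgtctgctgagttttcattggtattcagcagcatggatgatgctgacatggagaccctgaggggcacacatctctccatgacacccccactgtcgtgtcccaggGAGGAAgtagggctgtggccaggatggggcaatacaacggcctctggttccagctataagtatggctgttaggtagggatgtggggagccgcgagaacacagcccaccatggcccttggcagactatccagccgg
Ltf: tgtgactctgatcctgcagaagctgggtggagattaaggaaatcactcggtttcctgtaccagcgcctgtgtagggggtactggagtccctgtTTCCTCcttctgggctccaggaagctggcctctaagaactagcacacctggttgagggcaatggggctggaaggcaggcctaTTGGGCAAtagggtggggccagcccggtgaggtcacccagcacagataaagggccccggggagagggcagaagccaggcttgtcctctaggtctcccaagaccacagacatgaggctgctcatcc
Ngp: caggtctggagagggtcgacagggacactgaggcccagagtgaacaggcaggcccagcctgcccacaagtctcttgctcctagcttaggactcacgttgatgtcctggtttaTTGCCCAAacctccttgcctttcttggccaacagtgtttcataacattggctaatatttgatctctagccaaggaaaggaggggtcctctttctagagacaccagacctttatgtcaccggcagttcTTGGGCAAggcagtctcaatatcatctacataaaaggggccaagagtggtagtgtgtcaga
S100a8: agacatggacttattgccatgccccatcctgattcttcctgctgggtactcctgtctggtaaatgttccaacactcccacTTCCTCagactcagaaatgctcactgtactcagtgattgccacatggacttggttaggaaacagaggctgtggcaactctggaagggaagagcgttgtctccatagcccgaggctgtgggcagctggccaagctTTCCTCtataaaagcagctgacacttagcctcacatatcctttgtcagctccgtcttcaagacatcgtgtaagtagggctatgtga
No matches overlapped each other in these 4 windows. Elane had 1 PU.1 core and no C/EBP core, Ltf had 1 of each, Ngp had 2 C/EBP cores and no PU.1 core, and S100a8 had 2 PU.1 cores and no C/EBP core. A promoter was found for 33 of the 36 genes, with 35 windows in all. The C/EBP core was in 10 of the 35 windows (28.6%) and in 10.8% of all 32851 promoter windows of this length, and the PU.1 core in 21 (60.0%) and 28.3%. By gene, the C/EBP core was found for 1 of 5 primary, 3 of 8 secondary and 3 of 8 late members, and the PU.1 core for 5, 5 and 4 of them. A match of letters describes a window and is neither a bound site nor a cause.

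Neutrophil transcripts were much lower in Scf-GFP+ cells than in whole marrow. Of the 34 genes, 29 were called lower and 2 higher in Scf-GFP+ cells, where a call needs a limma adjusted p below 0.05 over all genes and at least a 2-fold difference. Among all 19938 genes, 7.89% were called lower and 9.01% higher. The class counts below are read against these shares. The median difference was -4.11 on the log2 scale for the members, Scf-GFP+ minus whole marrow, and -0.08 over all genes. In 32 members every Scf-GFP+ array lay below every whole marrow array, and in the other 2 above it, against 26.4% and 19.0% of all genes. Whole marrow is a mixture, and fewer cells of a type cannot be told apart from less RNA per cell in such samples. Low values are not read as absence, because these arrays have no detection call and the first quartile of the arrays lay at 5.193 to 5.312.

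**Figure D1:**
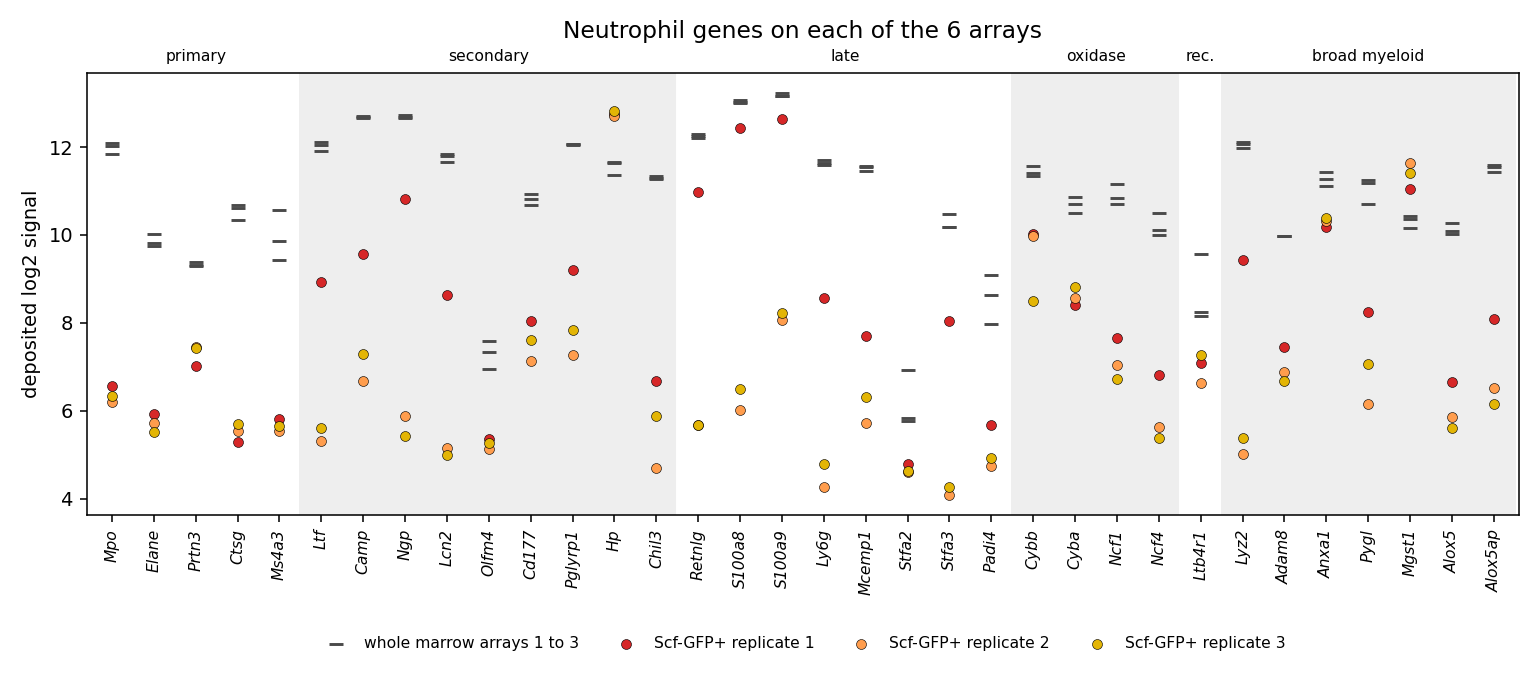
Deposited log2 signal (vertical axis) of the 34 neutrophil genes (horizontal axis, grouped by class; rec. is the receptor Ltb4r1) on each array, with grey dashes for the 3 whole marrow arrays and coloured points for the Scf-GFP+ replicates. The Scf-GFP+ points lie together for the primary granule genes, while replicate 1 lies far above replicates 2 and 3 for genes such as Ngp (10.82 against 5.88 and 5.42) and S100a8 (12.44 against 6.01 and 6.49).

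Primary granule genes were uniformly low in Scf-GFP+ cells. All 5 were called lower, and their Scf-GFP+ arrays spanned at most 0.43 log2 units. Mpo, myeloperoxidase, measured 6.57, 6.20 and 6.33 on the Scf-GFP+ arrays and 12.03, 11.84 and 12.08 in whole marrow. The groups lay far apart and no single array stood out, and the difference was -5.61 ± 0.14 (SE, with 3 arrays in each group, limma adjusted p = 2.15e-06), a 48.87-fold lower signal.

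Ctsg, cathepsin G, measured 5.30, 5.54 and 5.70 in Scf-GFP+ cells and 10.62, 10.35 and 10.67 in whole marrow (difference -5.03 ± 0.15, limma adjusted p = 3.47e-06). Ms4a3, a membrane protein of granulocyte and monocyte progenitors, measured 5.81, 5.54 and 5.65 against 10.57, 9.42 and 9.86 (-4.29 ± 0.28). The whole marrow arrays of Ms4a3 spread more than those of Mpo or Ctsg, yet the lowest of them was far above the highest Scf-GFP+ array. Elane differed by -4.14 ± 0.14. Prtn3, proteinase 3, showed the smallest difference of the class, with 7.03, 7.46 and 7.44 in Scf-GFP+ cells and 9.31, 9.38 and 9.29 in whole marrow (-2.02 ± 0.14, limma adjusted p = 0.000102). Prtn3 and Ctsg were lower in replicate 1 than in replicates 2 and 3, and Mpo, Elane and Ms4a3 slightly higher, by no more than 0.31 above the mean of the other Scf-GFP+ arrays.

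Secondary granule genes were also low in Scf-GFP+ cells, by an amount that depended on the array. Of 9, 8 were called lower and 1, Hp, higher. Ltf, which binds iron, measured 8.93 in Scf-GFP+ replicate 1, 5.31 in replicate 2 and 5.61 in replicate 3, against 12.04, 11.91 and 12.12 in whole marrow. The groups did not overlap, but replicate 1 lay over 3 log2 units above the other Scf-GFP+ arrays. The difference was -5.41 ± 0.91 (limma adjusted p = 0.00527) with all arrays and -6.56 ± 0.15 without replicate 1.

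Lcn2, lipocalin 2, which binds bacterial siderophores, measured 8.63, 5.15 and 5.00 against 11.67, 11.84 and 11.80 in whole marrow (-5.50 ± 0.93, limma adjusted p = 0.00536). Camp, the cathelicidin antimicrobial peptide, measured 9.56, 6.68 and 7.29 against 12.67, 12.69 and 12.71 (-4.85 ± 0.69, limma adjusted p = 0.00250). Replicate 1 was again the high Scf-GFP+ array for both genes. Ngp had the widest spread of the class, with 10.82 in replicate 1, 5.88 in replicate 2 and 5.42 in replicate 3, against 12.67, 12.73 and 12.68 in whole marrow. Its difference of -5.32 ± 1.35 was called with all arrays (limma adjusted p = 0.0276) and became -7.05 ± 0.17 without replicate 1. The call of Ngp ended when one of Scf-GFP+ replicates 2 and 3 was left out (adjusted p = 0.0824 and 0.0704 in limma) and when any single whole marrow array was (0.0786, 0.0759 and 0.0812 for replicates 1, 2 and 3). Over all alternatives it lay between 1.82e-05 and 0.0824.

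Chil3, a chitinase-like protein with near-identical gene copies that the array may not separate, measured 6.69, 4.70 and 5.89 against 11.30, 11.27 and 11.33 (-5.54 ± 0.46). Here replicate 3 lay between the other Scf-GFP+ arrays. Pglyrp1, which binds bacterial cell walls, differed by -3.95 ± 0.45, and Cd177, a neutrophil surface protein, by -3.20 ± 0.23. Olfm4, which marks a subset of neutrophils, differed by -2.04 ± 0.18, and its Scf-GFP+ arrays spanned 0.22.

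Hp ran the other way. It encodes haptoglobin, which binds free haemoglobin, is stored in neutrophil granules and is also made by liver and fat cells. Its values were 12.76, 12.71 and 12.83 in Scf-GFP+ cells and 11.37, 11.63 and 11.65 in whole marrow. Every Scf-GFP+ array lay above every whole marrow array, a difference of 1.21 ± 0.12 (2.32-fold higher, limma adjusted p = 0.000446). Replicate 1 lay 0.01 below the mean of the other Scf-GFP+ arrays.

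Late maturation genes differed most between the Scf-GFP+ arrays among the 6 classes, with a median span of 4.13 log2 units, against 1.99 for secondary and 0.40 for primary genes. Of 8, 6 were called lower, and S100a8 and S100a9 were not called although no array of one group overlapped the other. S100a8 and S100a9 encode the calgranulins, calcium-binding proteins that fill the neutrophil cytoplasm. S100a8 measured 12.44 in Scf-GFP+ replicate 1, 6.01 in replicate 2 and 6.49 in replicate 3, against 13.030, 12.997 and 13.058 in whole marrow. Replicate 1 thus reached 66.6% of the mean whole marrow signal, and replicates 2 and 3 reached 0.773% and 1.07%.

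S100a9 measured 12.64, 8.07 and 8.23 against 13.16, 13.23 and 13.16, with the same single high array. The differences, -4.71 ± 1.61 for S100a8 and -3.54 ± 1.17 for S100a9, did not pass (limma adjusted p = 0.0770 and 0.0690). Without replicate 1 they were -6.78 ± 0.17 and -5.03 ± 0.12, and both were called (limma adjusted p = 1.82e-05 for each). Over all alternatives the limma adjusted p ran from 1.82e-05 to 0.191 for S100a8 and from 1.82e-05 to 0.176 for S100a9. With all arrays but without the dimmest 30% of genes, S100a9 was just called (limma adjusted p = 0.0493) and S100a8 was not (0.055). The whole marrow values lie close to the highest value in the table, 13.408, where arrays lose resolution, so the shares of the whole marrow signal are approximate.

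Retnlg, a resistin-like protein of mature neutrophils, measured 10.97, 5.68 and 5.67 against 12.24, 12.20 and 12.30. Replicates 2 and 3 lay side by side and replicate 1 over 5 log2 units above them. The difference of -4.81 ± 1.38 was just called (limma adjusted p = 0.0426) and was -6.58 ± 0.11 without replicate 1. Without Scf-GFP+ replicate 2 or 3 the limma adjusted p of Retnlg was 0.117 and 0.112, and without whole marrow replicate 1, 2 or 3 it was 0.110, 0.102 and 0.112 (from 1.79e-05 to 0.117 over all alternatives). Its call also ended after a second quantile normalization (limma adjusted p = 0.0501). It ended too with a term for the array split seen in Xist and Eif2s3y, here the sex-linked term. That term leaves Scf-GFP+ replicate 3 alone against whole marrow, and the difference of Retnlg with it was larger, -6.58.

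Ly6g, a surface protein by which mouse neutrophils are commonly identified, measured 8.56, 4.27 and 4.80 against 11.64, 11.71 and 11.58 (-5.77 ± 1.05, limma adjusted p = 0.00750). Stfa3, a cysteine protease inhibitor of the stefin A cluster, measured 8.05, 4.08 and 4.27 against 10.19, 10.48 and 10.19 (-4.82 ± 1.01, limma adjusted p = 0.0133). In both, replicate 1 lay between whole marrow and the other Scf-GFP+ arrays. Mcemp1, a membrane protein of mast cells and neutrophils, measured 7.70, 5.73 and 6.31 against 11.55, 11.45 and 11.56 (-4.94 ± 0.46), and Padi4, which citrullinates histones in neutrophil traps, differed by -3.45 ± 0.35. Stfa2 was lower by -1.50 ± 0.31 from a whole marrow level of only 6.18 (limma adjusted p = 0.0129, from 0.00220 to 0.0887 over all alternatives). Its call ended with the sex-linked term, where its difference was -1.54. The stefin A genes are near-identical copies, so their rows may share signal.

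The granule classes separated the Scf-GFP+ arrays. In replicate 1 the median difference from whole marrow was -4.14 for the primary, -2.86 for the secondary and -1.81 for the late genes. In replicate 2 these medians were -4.41, -6.02 and -6.00, and in replicate 3 they were -4.35, -5.40 and -5.61. By these medians replicate 1 was like the others in primary granule genes and closer to whole marrow in secondary and late genes. Olfm4, Hp and Stfa2 did not follow this, with Scf-GFP+ arrays that spanned 0.22, 0.12 and 0.18. Olfm4 and Stfa2 had little room to spread, with whole marrow means of only 7.29 and 6.18. A row that names Stfa2 together with another gene, not used here, had replicate 1 as the high Scf-GFP+ array (6.19, 4.26 and 4.43). As a share of the whole marrow signal, the median late gene stood at 29.8% in replicate 1, 1.58% in replicate 2 and 2.12% in replicate 3. The corresponding shares were 13.8%, 1.55% and 2.36% for secondary genes and 5.67%, 4.69% and 4.92% for primary genes. Many Scf-GFP+ values behind the small shares lay near the first quartile of the arrays (5.193 to 5.312). Small shares thus also depend on the whole marrow level of the genes and are approximate. With a single array on one side, these values have no test.

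**Figure D2:**
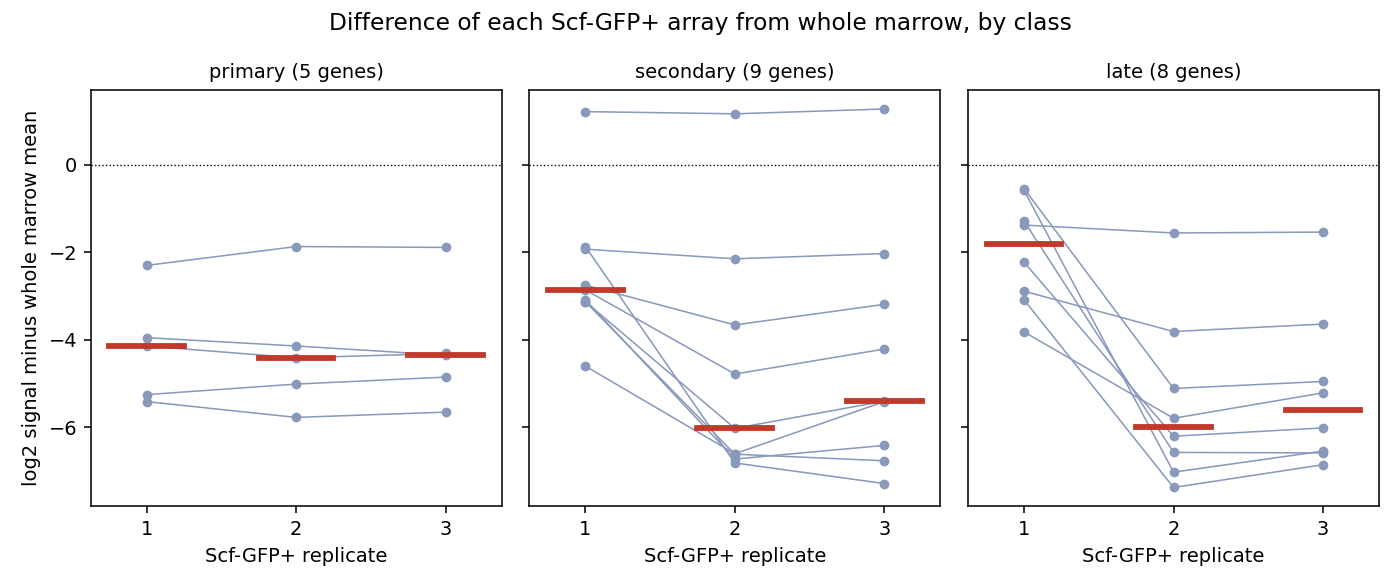
Difference in log2 signal from the mean of the 3 whole marrow arrays (vertical axis) on each Scf-GFP+ replicate (horizontal axis) for primary, secondary and late genes, with 1 line per gene, which joins its 3 arrays and implies no order, and red bars for the class medians. The primary medians lie between -4.41 and -4.14, while the late median is -1.81 in replicate 1 and -6.00 and -5.61 in replicates 2 and 3.

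Replicate 1 was at least 2-fold above both other Scf-GFP+ arrays in 15 of the 34 members, against 0.923% of all genes. These were 0 of 5 primary, 5 of 9 secondary and 6 of 8 late genes, 1 of 4 oxidase genes, 0 of 1 receptor and 3 of 7 broad myeloid genes. Neither replicate 2 nor replicate 3 was 2-fold above both others in any member, against 0.572% and 0.782% of all genes. At least 4-fold, the count for replicate 1 was 10 of 34, against 0.176% of all genes. S100a8 had the widest gap of all 19938 genes, 5.95 above the higher of the other Scf-GFP+ arrays, and 9 of the 20 genes with the widest gaps were members.

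Genes of the phagocyte oxidase, which makes superoxide and is shared with macrophages and B cells, were called lower for 4 of 4. Ncf4, the p40 subunit, measured 6.82, 5.63 and 5.39 against 10.00, 10.12 and 10.51 (-4.26 ± 0.38, limma adjusted p = 0.000286), and Ncf1, the p47 subunit, 7.66, 7.04 and 6.72 against 10.71, 10.85 and 11.15 (-3.76 ± 0.25). Cyba, the small membrane subunit, measured 8.41, 8.57 and 8.81 against 10.71, 10.50 and 10.86 (-2.09 ± 0.15), and here replicate 1 was the lowest Scf-GFP+ array. Cybb, the large membrane subunit, measured 10.02, 9.97 and 8.49 against 11.35, 11.41 and 11.56 (-1.95 ± 0.40, limma adjusted p = 0.0126). For Cybb replicates 1 and 2 stood together and replicate 3 was low, a pattern unlike that of the late genes. Replicates 1 and 2 were also the arrays high in Xist. The sex-linked term leaves replicate 3 alone against whole marrow, so the Cybb difference with it, -2.95, is the value of that array. A cause of the pattern was not tested.

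Ltb4r1, the leukotriene B4 receptor that draws neutrophils to inflamed tissue, measured 7.09, 6.63 and 7.27 in Scf-GFP+ cells and 8.15, 8.24 and 9.56 in whole marrow. The difference of -1.66 ± 0.40 was called (limma adjusted p = 0.0222) and rested on few arrays. Without Scf-GFP+ replicate 1 it was -1.70 (adjusted p = 0.0558) and without replicate 2 it was -1.47 (adjusted p = 0.0700, from 0.0116 to 0.195 over all alternatives), so neither was called, and the sex-linked term ended the call too.

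Among 7 members that other myeloid cells also use, 5 were called lower, 1 higher and 1 neither. Lyz2, lysozyme of neutrophils and macrophages, measured 9.43, 5.03 and 5.38 against 12.07, 12.12 and 11.98 (-5.44 ± 1.10, limma adjusted p = 0.0115), with replicate 1 high as for the late genes, and -6.85 ± 0.15 without it. Alox5ap and Alox5, the activating protein and the lipoxygenase of leukotriene synthesis, differed by -4.60 ± 0.47 and -4.08 ± 0.26. Alox5ap measured 8.09, 6.52 and 6.15 against 11.44, 11.55 and 11.58, and Alox5 measured 6.65, 5.87 and 5.62 against 10.02, 10.27 and 10.09. In both, replicate 1 was the highest Scf-GFP+ array by less than for Lyz2.

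Pygl, liver-type glycogen phosphorylase, which neutrophils use as well, measured 8.25, 6.15 and 7.07 against 11.19, 10.70 and 11.24 (-3.89 ± 0.50), and Adam8, a membrane protease of granules, differed by -2.97 ± 0.21. Anxa1, annexin A1, an anti-inflammatory protein of many cell types, measured 10.18, 10.32 and 10.39 against 11.28, 11.44 and 11.11. Its groups did not overlap and its adjusted p was 0.00165, but the difference of -0.98 ± 0.13 missed the 2-fold limit. It was called without Scf-GFP+ replicate 3 (-1.03) or whole marrow replicate 3 (-1.07).

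Mgst1, a microsomal glutathione transferase that many tissues make, was the other member called higher. It measured 11.05, 11.63 and 11.41 in Scf-GFP+ cells and 10.37, 10.16 and 10.42 in whole marrow (1.05 ± 0.17, 2.06-fold higher, limma adjusted p = 0.00471). Replicate 1 was the lowest Scf-GFP+ array for Mgst1 and still lay above whole marrow. Without Scf-GFP+ replicate 2 the difference was 0.91 and without whole marrow replicate 2 it was 0.97, below the 2-fold limit in both.

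**Figure D3:**
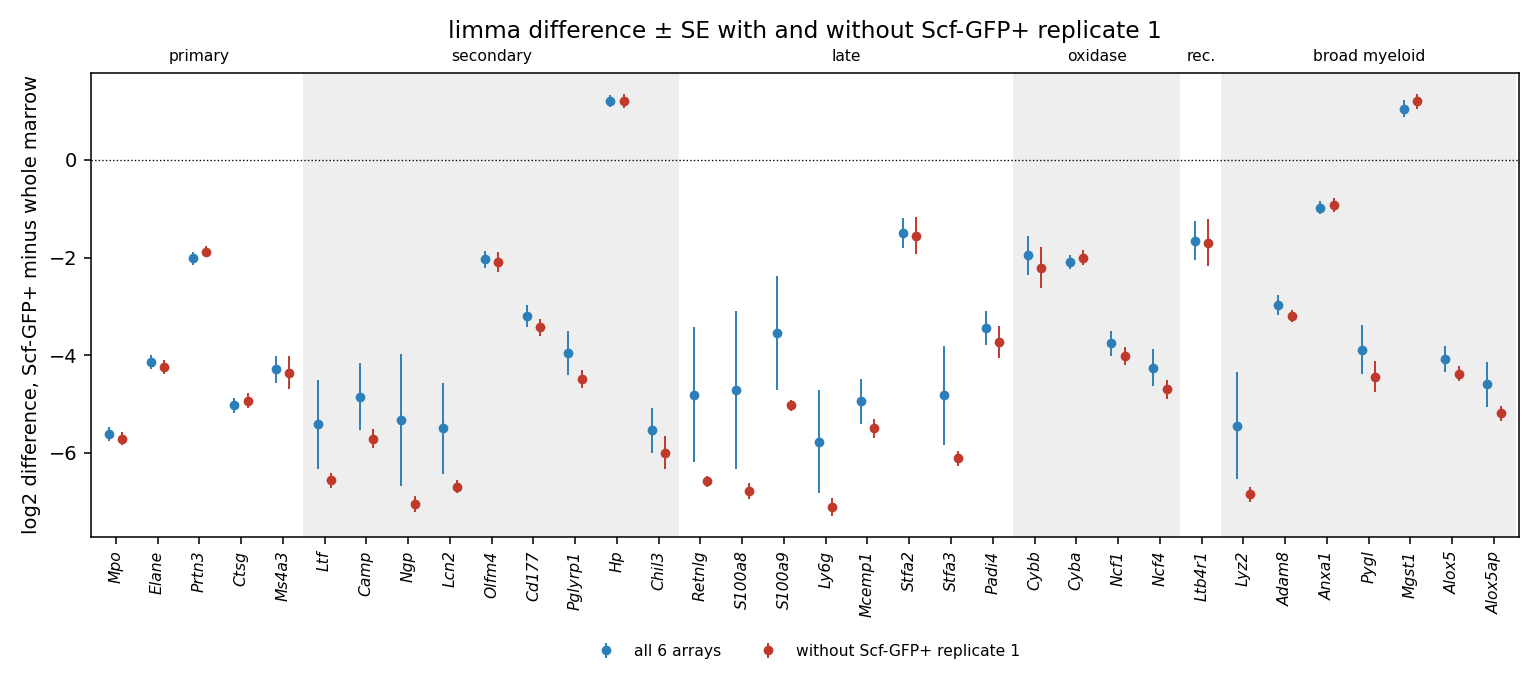
Log2 difference, Scf-GFP+ minus whole marrow, with limma SE bars (vertical axis) for the 34 genes (horizontal axis, by class), from all 6 arrays in blue and without Scf-GFP+ replicate 1 in red. Primary genes keep their values, as Mpo at -5.61 and -5.71, whereas S100a8 moves from -4.71 ± 1.61 to -6.78 ± 0.17.

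Leaving out replicate 1 raised the members called lower from 29 to 30, against 7.51% of all genes called lower in that fit, and left 2 called higher, against 8.52%. All 8 late genes were then called, while Ltb4r1 was lost. The median over the 34 members moved from -4.11 to -4.47, that of the late genes from -4.76 to -5.80 and that of the primary genes from -4.29 to -4.36.

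Other neutrophil genes outside the set were mostly lower too, in a list chosen with earlier results of these data known. Of 36 measured transcription factors, receptors, proteases and surface proteins in it, 30 were called lower, 1 higher and 5 neither. Among all genes, 7.89% were called lower and 9.01% higher. The median difference of the list was -3.61. Ifitm6, an interferon-induced membrane protein family member, measured 8.85, 4.49 and 4.77 against 12.10, 12.09 and 11.95 (-6.01 ± 1.10), and Trem1, which amplifies neutrophil activation, 6.62, 5.11 and 5.12 against 11.34, 11.21 and 11.42 (-5.70 ± 0.40). Mmp8, the collagenase stored in neutrophil granules, measured 9.97, 4.39 and 4.53 against 11.79, 11.72 and 11.87 (-5.50 ± 1.43, limma adjusted p = 0.0306, from 1.79e-05 to 0.0896 over all alternatives). Mmp8 was no longer called when one of Scf-GFP+ replicates 2 and 3 (adjusted p = 0.0854 and 0.0838 in limma) or any one of whole marrow replicates 1, 2 and 3 (0.0854, 0.0792 and 0.0896) was left out, and with the sex-linked term (0.0566).

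Cxcr2, the chemokine receptor that releases mature neutrophils from marrow, measured 9.63, 5.05 and 5.31 against 11.39, 11.64 and 11.63 (-4.89 ± 1.16, limma adjusted p = 0.0216, from 1.82e-05 to 0.0694 over all alternatives). The same omissions ended its call, with 0.0608 and 0.0618 for the Scf-GFP+ arrays and 0.0623, 0.0643 and 0.0694 for the whole marrow arrays (limma adjusted p). Il1b, the inflammatory cytokine, measured 7.50, 5.87 and 5.90 against 11.80, 11.85 and 11.92 (-5.44 ± 0.43). Replicate 1 was the highest Scf-GFP+ array for Il1b and lay far below whole marrow. The surface protein Lilrb4a measured 7.69, 5.16 and 4.85 against 10.63, 10.64 and 10.57 (-4.71 ± 0.71), and the surface protein Ceacam10 8.38, 6.01 and 5.75 against 11.16, 10.98 and 11.05 (-4.35 ± 0.66).

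The C-type lectin receptors Clec4e and Clec4d are found on myeloid cells. Clec4e measured 6.61, 4.25 and 4.59 against 10.16, 10.31 and 10.18 (-5.07 ± 0.58), and Clec4d 7.33, 5.02 and 5.20 against 10.38, 10.66 and 9.97 (-4.49 ± 0.60). Replicate 1 was the high Scf-GFP+ array for all 4 of these surface proteins. Replicate 1 was at least 2-fold above both other Scf-GFP+ arrays in 17 of the 36 genes, against 0.923% of all genes.

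Replicate 1 was not high in every gene of that list. Cebpe, the transcription factor that secondary granule genes need, measured 6.68, 6.63 and 6.69 in Scf-GFP+ cells and 9.94, 9.80 and 10.49 in whole marrow. Fcnb, a ficolin of early granulocytes, measured 6.40, 6.33 and 6.36 against 10.64, 10.56 and 9.98. Both were called lower, at -3.41 ± 0.19 and -4.03 ± 0.19, with Scf-GFP+ arrays that spanned 0.06 and 0.07, and both were picked after their values were seen. So were Mmp25, a membrane-anchored protease, at 6.66, 6.32 and 6.48, Fcgr4, an Fc receptor, at 5.10, 5.03 and 5.06, and Mxd1, a transcription factor, at 7.70, 7.84 and 7.34 in Scf-GFP+ cells. Cebpa, a factor of granulocyte commitment that fat cells also use, was called higher, with 9.52, 9.43 and 9.81 against 7.85, 7.99 and 8.64 (1.42 ± 0.23, limma adjusted p = 0.00430).

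Lists of other marrow cells gave small medians for the same contrast between Scf-GFP+ arrays. The median of replicate 1 minus the mean of replicates 2 and 3 was 0.22 for primary, 1.64 for secondary and 3.95 for late members, 0.79 for the oxidase, 0.90 for the broad myeloid members and 0.84 for the other neutrophil genes. It was 0.14 for 13 monocyte and macrophage genes, 0.07 for 12 of eosinophils, basophils and mast cells, -0.07 for 11 erythroid, 0.05 for 13 B lineage, 0.00 for 9 T and NK cell, 0.04 for 6 megakaryocyte and -0.10 for 12 stromal genes. Of these 76 genes outside the neutrophil lists, 1 had replicate 1 at least 2-fold above both other Scf-GFP+ arrays, against 0.923% of all genes. That gene was Ctss, cathepsin S, at 7.11, 5.57 and 6.06, named here after its values were seen. The monocyte and macrophage genes varied in this contrast from -0.58 for Cd68 to 1.29 for Ctss. Ccr2, a chemokine receptor of monocytes, was next below Ctss at 0.97, with 6.26, 5.41 and 5.19, and Mpeg1 followed at 0.66. The macrophage receptor Csf1r was at -0.28. Lists that differ little from whole marrow have little room to move in this contrast. The median difference, Scf-GFP+ minus whole marrow, was only -0.59 for T and NK cell and -0.66 for megakaryocyte genes. It was -1.68 for eosinophil, basophil and mast cell, -2.47 for monocyte and macrophage, -3.22 for B lineage and -4.48 for erythroid genes.

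**Figure D4:**
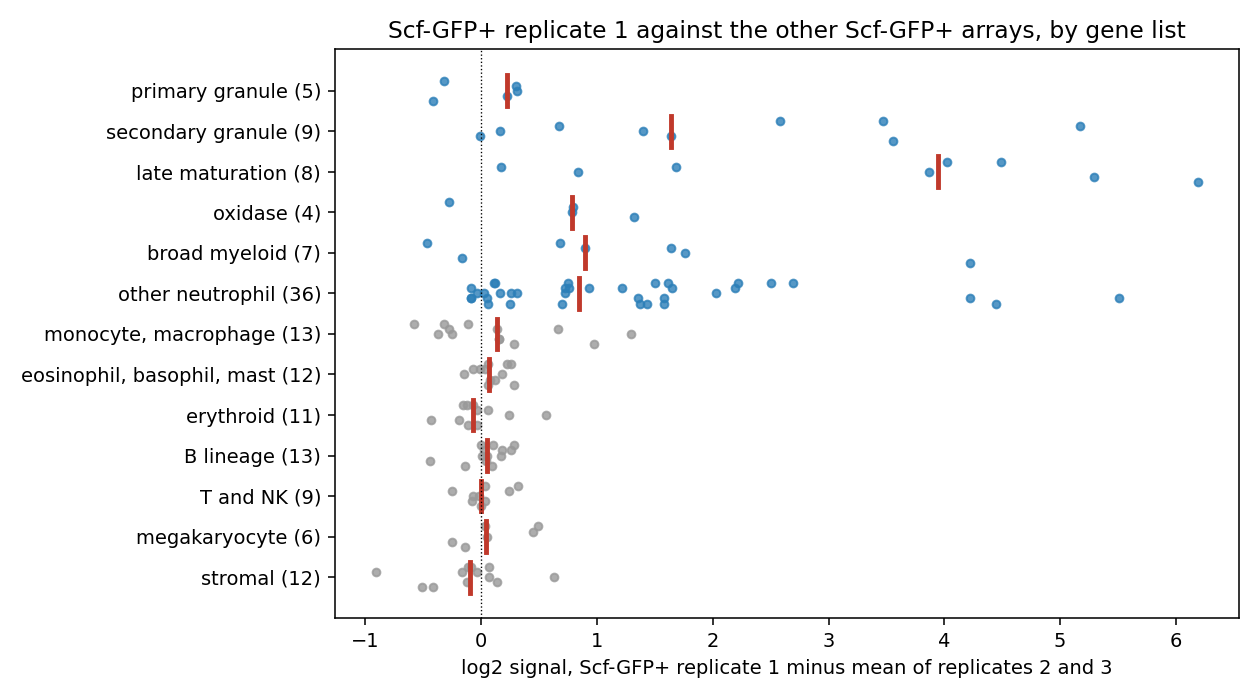
Log2 signal of Scf-GFP+ replicate 1 minus the mean of replicates 2 and 3 (horizontal axis) for each gene of 13 lists (vertical axis, number of genes in brackets), in blue for neutrophil lists and grey for other cells, with red bars at list medians. Late genes reach 6.19 with a median of 3.95, while the medians of the grey lists lie between -0.10 and 0.14.

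The stromal genes had a mean level of 10.96 in replicate 1 and 11.08 and 11.09 in replicates 2 and 3. Monocyte and macrophage genes had mean levels of 6.23, 6.12 and 6.06 on these arrays and 8.21 to 8.33 in whole marrow. The 8 late members had mean levels of 8.85, 5.40 and 5.67 on the Scf-GFP+ arrays and 10.70 to 11.01 in whole marrow, so replicate 1 lay between the other Scf-GFP+ arrays and whole marrow. The part of cells other than Scf-GFP+ cells in the replicate 1 values was not tested.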

How the data were processed

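RNA from 3 samples of Scf-GFP+ cells and 3 of whole bone marrow was measured on 1-colour arrays. The authors deposited 1 table of log2 values with 28940 rows. RMA, affy and limma are named without versions or roles, per the submitters' processing notes, and the genome build is not given in the sources used here. Values were used as deposited, and array medians lay between 6.564 and 6.631. A platform annotation gave 1 gene symbol for 21789 rows. Where 999 genes had more than 1, the brightest row on average over the 6 arrays was taken, which gave 19938 genes.

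Groups were compared with limma 3.58.1 in R 4.3.3 (lmFit, eBayes, no covariates), with Benjamini-Hochberg adjustment over all genes. Precision is limited by the number of arrays and by the spread between them. The fit was tested on simulated data. The members, classes and lists were chosen with earlier results of these data known. Every member is named. Values on all arrays are given for up to 3 members per class with the largest differences, for those not called lower and for those whose Scf-GFP+ arrays span more than 2 log2 units, and likewise for the 4 other neutrophil genes with the largest differences and 6 others, the 1 called higher and the 5 of widest span beyond that limit. Alternatives left out single arrays or changed the normalization, centring, variance model, array weights, filter, row rule or thresholds, or added a term.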

Additional observations from a re-analysis of the deposited data

How the results depend on the processing

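Same-numbered arrays of the different groups correlated at -0.063, -0.022 and 0.066 in their deviations from the group means. No pairing by the replicate numbers in the titles was thus visible. With 3 arrays per group, these values cannot show whether same-numbered samples were collected together. With the replicate number as a block, 29 members were called lower and 2 higher, as without it, and 1563 of all genes lower and 1775 higher.

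Of 475 refits of single members, 452 kept direction and call, 18 lost the call, 5 gained it and 0 reversed, and 26 of the 34 members kept theirs in every refit. All 5 primary members were called lower under every alternative. When single arrays were left out, members called lower ranged from 26 to 30, members called higher from 1 to 2, and the receptor count was 0 or 1. Of all 19938 genes, 1448 to 1560 were called lower and 1618 to 1822 higher in those fits. A term for the split by Xist and Eif2s3y leaves Scf-GFP+ replicate 3 alone against whole marrow, so counts from that fit are not given. Without a fold threshold, 2635 genes were called lower and 2758 higher over the table, and at 4-fold 738 and 758. At 4-fold, 26 members were called lower, 0 were called higher and 0 receptors were called lower. Without Ms4a3 the primary class medians of the 3 Scf-GFP+ arrays were -4.60, -4.57 and -4.60. Without single whole marrow arrays they ranged from -4.40 to -3.97 in replicate 1, from -4.68 to -4.16 in replicate 2 and from -4.57 to -4.35 in replicate 3.

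Background correction could not be redone from summarised values. Signals near the first quartile or the upper end of the arrays are compressed, which limits the sizes given.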

Other observations

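Some genes outside all lists shared the array pattern of the late neutrophil genes and were picked after their values were seen. Tyrobp, an adaptor of myeloid and NK cell receptors, measured 10.95 in Scf-GFP+ replicate 1, 6.06 in replicate 2 and 6.32 in replicate 3, with a whole marrow mean of 12.48. Il1f9, a member of the interleukin 1 family, measured 9.58, 5.01 and 4.88, with a whole marrow mean of 10.44. Ptprc, which encodes the leukocyte marker CD45, measured 8.65, 5.68 and 6.03, with a mean of 10.30. Other genes with a high replicate 1 were lower in whole marrow than in that replicate. The small nucleolar RNA genes Snord118 and Snora20 measured 7.63, 3.71 and 3.73 and 8.17, 4.17 and 4.27, with whole marrow means of 4.83 and 4.48, and the microRNA gene Mir363 measured 6.37, 3.49 and 3.63, with a mean of 4.86. Fv1, a retroviral restriction gene, measured 9.61, 6.38 and 7.14, with a mean of 7.58. Of the 10 genes with the widest gap between replicate 1 and the higher of the other Scf-GFP+ arrays, 8 belonged to the members or to the list of other neutrophil genes.

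The array also held a row listed for both Stfa2 and its neighbour Stfa2l1, which was not used because it names more than 1 gene. It measured 6.19, 4.26 and 4.43 on the Scf-GFP+ arrays and 9.69, 9.64 and 9.01 in whole marrow. The row used for Stfa2 spanned 0.18 in Scf-GFP+ cells, whereas this row had replicate 1 as the high array, as Stfa3 did.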
